A study of Mus musculus with 28 samples.

Results

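The proteins of the cytosolic ribosome are encoded by one of the most highly expressed gene families of a cell, and they were followed here in mouse colon organoids before and after Cre recombination. The family was taken by name, as every counted gene whose symbol starts with Rpl or Rps and a digit, with *Rpsa*, *Rplp0*, *Rplp1* and *Rplp2* added, and without the Rps6k kinases, the paralogs whose names end in l1 and the annotated -ps pseudogenes. This gave 83 of the 13519 genes counted, 47 named for the large and 35 for the small subunit, and 1 regulator that the name rule also takes, *Rps19bp1*. Of the 83, 76 are standard subunit genes (45 large, 31 small) and 7 are other forms, namely *Rpl36al*, *Rpl37rt*, *Rps19bp1*, *Rps27l*, *Rps27rt*, *Rps3a2* and *Rps4l*. Of these 7, *Rpl37rt* and *Rps4l* are annotated as transcribed processed pseudogenes and *Rps3a2* as a processed pseudogene. The other 80 of the 83 are annotated as protein coding. *Rpl24* was not analysed here.

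The organoids came from the colon epithelium of C57BL/6N mice. All of them carried VillinCreERT2, a tamoxifen-inducible Cre under the Villin promoter, which is active in intestinal epithelium, together with the floxed APCflox/flox alleles. AC organoids had only these, PAC organoids also had Trp53LSL-R172H/+, BAC organoids also had BraffloxV600E/+, and BPAC organoids had both additions. Cultures were exposed for 24 hours either to 3.5 µM 4-hydroxytamoxifen (4-HT), which activates Cre, or to the vehicle ethanol (EtOH), and RNA was isolated 3 days later. The 28 samples came from 7 donors, 1 for AC and 2 for each other genotype, with 2 cultures per donor (called duplicates 1 and 2) and both treatments in each of the 14 cultures. According to a legend of the study, the cultures of a donor were taken from separate passages, and a pair of donors was used for every genotype, whereas the labels give a single one for AC. AC thus had 2 samples per treatment and the other genotypes 4, and since the duplicates share a donor, p-values measure the spread between these samples. EtOH-treated samples are the control for 4-HT and carry the same unrecombined alleles.

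A ribosome has 1 copy of nearly every one of these proteins, which are assembled on ribosomal RNA in the nucleolus. Large subunit proteins surround the centre where peptide bonds form, whereas small subunit proteins hold the mRNA and the decoding site, and P0, P1 and P2 make the stalk that calls in the elongation factors. Most of their mRNAs begin with a C followed by a run of pyrimidines (C or T in the gene), the 5′ terminal oligopyrimidine (TOP) motif, through which mTORC1 and LARP1 set their translation. Intestinal crypt cells divide fast and make many ribosomes, and free RPL5 and RPL11 bind MDM2, the ligase that keeps p53 low.

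The letters at the annotated start sites were searched for this motif, which most of them did not hold in full. Annotated starts can differ from the starts used in these cells, so a run not found there does not show that the motif is absent. RefSeq promoters of GRCm38.p6 were found for 61 of the 83 genes, and the start base was C in 36.1% of them, against 14.7% of the 10114 promoters of counted genes. A run of at least 5 C or T bases from a start base C was found in 21.3%, against 2.27%, and a run of at least 7 within 10 bases of the start in 37.7%, against 12.6%. Windows of 30 bases are printed for 6 genes, from 12 bases before the start to 18 bases from it, because they belong to the genes with the largest 4-HT changes in BAC and BPAC (*Rpl15*, *Rpl27*, *Rpl5*) and to others described with them (*Rps6*, *Rps27*, *Rpsa*), and capitals mark the longest C and T run, clipped to 10 bases on each side of the start, where it has at least 5 bases.
Rpl15: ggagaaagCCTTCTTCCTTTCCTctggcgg
Rpl27: ctctgTTCCTgtctgctgctcgtgctgcta
Rpl5: cacgtcgcttgcgtgctggtggtgctacat
Rps6: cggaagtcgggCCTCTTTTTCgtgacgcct
Rps27: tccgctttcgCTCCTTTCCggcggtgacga
Rpsa: ggttatttaaggacgtcaTTTCCggccgcc
They lie at chr14:18270969-18270998 on the minus strand (*Rpl15*), chr11:101442233-101442262 on the plus strand (*Rpl27*), chr5:107900516-107900545 on the plus strand (*Rpl5*), chr4:86857350-86857379 on the minus strand (*Rps6*), chr3:90213631-90213660 on the minus strand (*Rps27*) and chr9:120127754-120127783 on the plus strand (*Rpsa*). *Rpl15* had a run of 15 bases within this distance, going on beyond it, and *Rpl5* none of 5. In the GENCODE annotation the genes *Rpl27* and *Rpl5* start at 101442298 and 107900502, both outside the printed windows. Of other letters searched on both strands of the 300-base promoters, CCGGAAG, a core bound by ETS factors, was found in 39.3% of the 61 and in 18.2% of all. CACGTG, the E-box that MYC binds, was found in 8.2% and 10.1%, GGGCGG in 60.7% and 64.3%, and AAGATGGC in 6.56% and 4.76%.

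Levels were compared between genes as TMM-normalized CPM (counts scaled to a common library size) per kilobase of the longest annotated transcript. On this scale the median of the 83 genes was 240 against 7.07 for the 13479 genes with a length. The highest was *Rplp0*, the stalk protein P0, with 979 ± 115 in EtOH-treated and 1190 ± 135 in 4-HT-treated samples (SD, n = 14 each), and *Rps2*, *Rplp1* and *Rpl4* were also among the 5 highest. The lowest were *Rps4l*, *Rpl23a*, *Rpl37rt*, *Rps27rt* and *Rps3a2*, between 10.9 and 1.51, with means of 288.1 counts per sample down to 33.8. Of these only *Rpl23a* is a standard subunit gene. Genes of this family have many near-identical processed copies, and reads can be split between a gene and its copies, so the counts of these 5 are uncertain. The 39 pseudogenes with -ps names that were left out held between 0.0036% and 0.0126% of the counts of a sample.

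The first question was how much of the library the family took up, and whether recombination altered it. The 83 genes held a larger share of the counts after 4-HT than after EtOH in each of the 14 cultures. In AC the share was 2.47% and 2.39% with EtOH in duplicates 1 and 2, and 3.06% and 2.51% with 4-HT. In PAC it was 2.43%, 2.05%, 2.29% and 2.21% with EtOH and 3.29%, 3.36%, 3.05% and 2.56% with 4-HT, in the order donor 1 and donor 2 of duplicate 1, then donor 1 and donor 2 of duplicate 2. These 4-HT values were all above the EtOH values of the same genotype. In the same order, BAC had 2.16%, 2.21%, 2.27% and 2.54% with EtOH and 3.13%, 3.27%, 2.70% and 2.97% with 4-HT. In BPAC the EtOH shares were 1.89%, 2.60%, 1.28% and 2.42%, and the 4-HT shares 3.23%, 3.29%, 2.68% and 2.87%. The groups did not overlap in any genotype, although the gap between the highest EtOH and the lowest 4-HT sample was only 0.0364 percentage points in AC and 0.08 in BPAC. The EtOH-treated sample of BPAC donor 1, duplicate 2, at 1.28%, was the lowest of the 28.

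**Figure D1:**
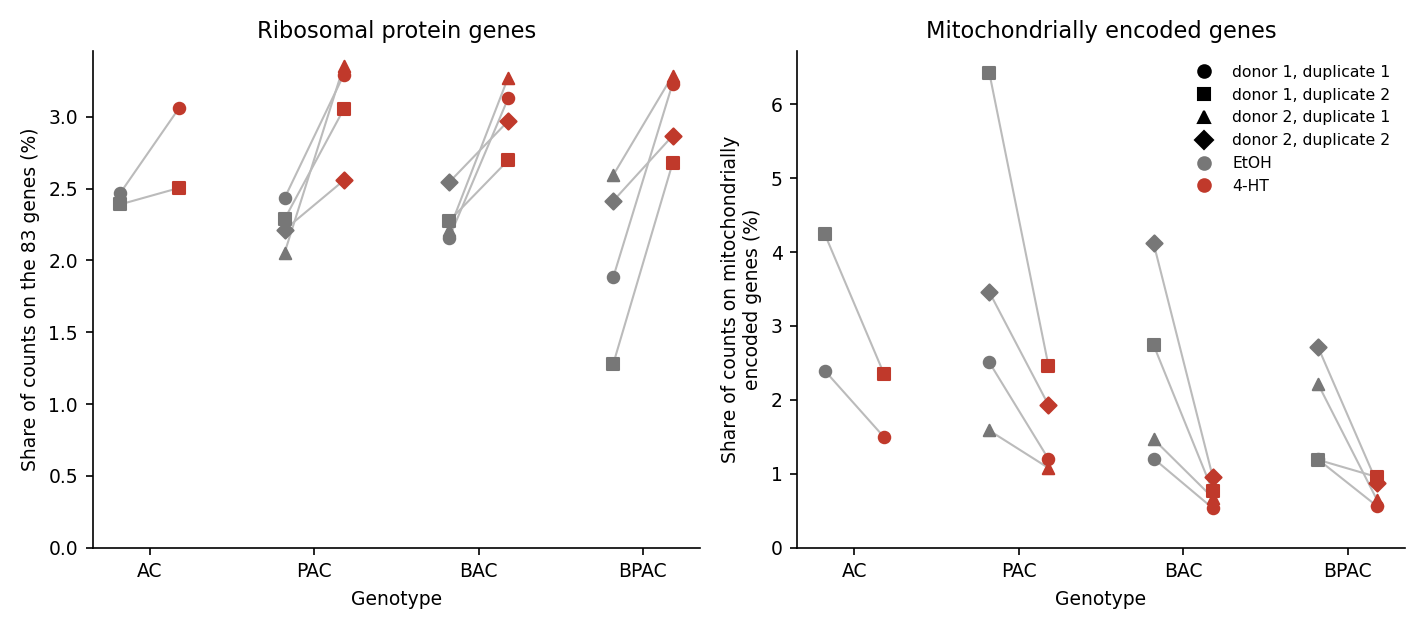
Share of each sample's counts (%) on the 83 ribosomal protein genes (left) and on the 13 mitochondrially encoded genes (right), by genotype, with EtOH in grey and 4-HT in red. Lines join the samples of 1 culture: the ribosomal protein share goes up and the mitochondrial share goes down along each of the 14 lines.

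The mean change of the share was 0.355 ± 0.339 percentage points in AC (SD, n = 2 cultures), and with n = 4 cultures each it was 0.817 ± 0.393 for PAC, 0.722 ± 0.344 for BAC and 0.97 ± 0.471 for BPAC. The cultures of duplicate 1 had a mean change of 0.975 and those of duplicate 2 of 0.56 percentage points (n = 7 each), and the BPAC mean without the donor 1 culture of duplicate 2 was 0.829. Both subunits took part, the large from 1.20% ± 0.337 to 1.75% ± 0.17 and the small from 0.838% ± 0.254 to 1.26% ± 0.122 in BPAC. A share depends on what else is in the library. The share of the 13 mitochondrially encoded genes fell in 14 of 14 cultures, by between 0.234 and 3.96 percentage points, and the size of the scaling factor that edgeR's TMM method gave differed by treatment, 0.885 to 0.970 with EtOH and 1.04 to 1.10 with 4-HT. Without the mitochondrial genes in the denominator the changes were 0.326, 0.785, 0.686 and 0.951 percentage points in AC, PAC, BAC and BPAC. With TMM-scaled library sizes they were -0.0449, 0.407, 0.414 and 0.61, so that the sign of the AC change turned with the scaling. In bulk RNA, fewer cells of a kind and less RNA per cell cannot be told apart.

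The quasi-likelihood test of edgeR was then run on each gene with TMM scaling, with Benjamini-Hochberg adjustment over the 13519 genes and an adjusted p of 0.01 as the threshold. All 83 passed the filter on low counts. In AC none of the 83 passed in either direction (406 genes, 3.00%, of all genes rose). The lowest adjusted p was 0.3, no gene of the family had an unadjusted p under 0.05, against 30.8% of all genes, and DESeq2 and limma-voom gave 0 as well. With the culture as a replicate block it was also 0 (7.45% of all genes rose). The log2 changes were centred near 0, with 36 genes above 0 and 47 at or below it, a median of -0.01 and a range from -0.34 to 0.29, against a median of 0.01 over all genes. With library size alone in place of TMM the median of all genes itself moved to between 0.13 and 0.23 in the 4 genotypes, and that of the 83 genes to 0.21 (AC), 0.46 (PAC), 0.40 (BAC) and 0.58 (BPAC), with 0 still passing in AC (11.2% of all genes rose). The split of all genes called moved with it, from 11.2% higher and 12.2% lower to 25.1% and 5.45% in PAC, and from 22.0% and 23.0% to 32.0% and 15.1% in BPAC. AC had 2 samples per arm.

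In PAC, 1 of the 83 genes rose, *Rpl27*, and none fell (11.2% of all genes rose). A total of 80 of 83 genes lay above 0 (96.4%, against 47.6% of all genes), and the median log2 change was 0.24 against -0.03. With the replicate block 4 rose, *Rpl15*, *Rpl27*, *Rpl36al* and *Rps19bp1* (16.5% of all genes). The call for *Rpl27* was lost without PAC replicate 1, 2 or 3 and without BAC replicate 1 or 3, and without the duplicate 1 cultures of both PAC donors 0 rose (0.163% of all genes) and the median was 0.13. Without BPAC replicate 3, which shares the estimate of the spread, 8 rose (12.7% of all genes). The place against the background turned with the setting, with 18.1% of the family and 14.4% of all genes under the GC and length offset and 36.1% and 25.1% with library size alone.

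In BAC, 8 rose and none fell (20.3% of all genes rose, the family's 9.64% being below that, and 21.5% fell). They were 6 large subunit genes, among them *Rpl15*, *Rpl27*, *Rpl5*, *Rpl6* and *Rpl36al*, 1 small subunit gene and *Rps19bp1*. A total of 73 of the 83 lay above 0, and the median was 0.23 against -0.04 for all genes. With the replicate block 17 rose (25.3% of all genes) and 1 fell (26.7% of all genes), the low-count *Rps4l* (edgeR adjusted p = 0.0075). Here too the place against the background turned, as 56.6% of the family and 24.9% of all genes rose with a GC and length offset, 34.9% and 28.7% with library size alone, and 48.2% and 19.8% in duplicate 1 alone. Leaving out single BAC cultures left between 3 and 5 genes (16.3% to 16.8% of all genes), and leaving out BPAC replicate 3 gave 22, or 26.5% of the family against 21.5% of all genes.

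In BPAC, 29 of the 83 rose and none fell (22.0% of all genes rose). Of the 29, 14 belong to the large and 14 to the small subunit, the other one being *Rps19bp1*, and all 8 that rose in BAC were among them. The median was 0.38 against -0.04 for all genes, 80 of 83 lay above 0, and 52 had an unadjusted p under 0.05, 60.9% of all genes doing so. The medians of the subunits were 0.36 (large, 47 genes) and 0.40 (small, 35 genes). With the replicate block 44 rose (26.7% of all genes). When single cultures were left out, the number was lowest without BPAC replicate 1 (donor 1, duplicate 1), where 5 rose, or 6.02% of the family against 17.3% of all genes. Leaving out any other single culture gave 20 to 34, with 20 without PAC replicate 3 and, without BPAC replicate 3 (donor 1, duplicate 2, the sample of low EtOH share), also 20, or 24.1% against 21.1%, with a median of 0.24. The family also lay below all genes with donor sums (10 of 83, against 21.9% of all genes) and above them with the GC and length offset (68.7% against 25.5%) and library size alone (67.5% against 32.0%).

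**Figure D2:**
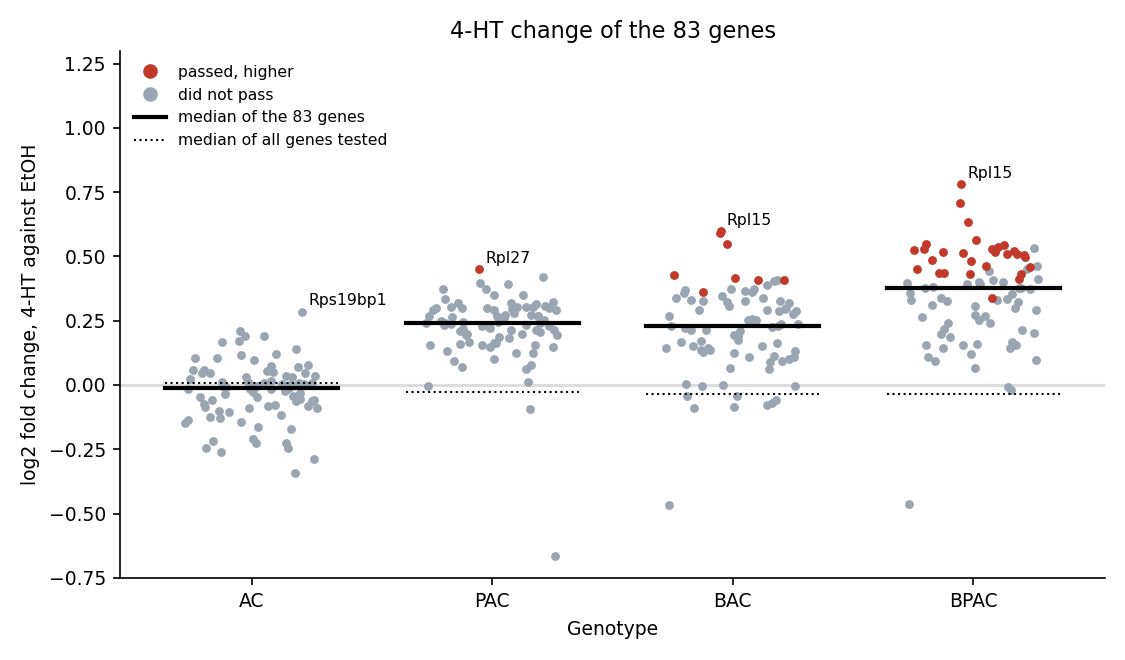
Log2 fold change of 4-HT against EtOH for the 83 genes (1 point each) in each genotype, with genes past the adjusted p of 0.01 in red and medians as lines. The median of the 83 genes is -0.01 (AC), 0.24 (PAC), 0.23 (BAC) and 0.38 (BPAC), while that of all genes lies between -0.04 and 0.01.

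Separation of the samples was counted as well. Every 4-HT sample lay above every EtOH sample for 3 of the 83 genes in AC, where 29.4% of all genes did so, for 9 in PAC (16.0% of all), for 23 in BAC (25.7% of all) and for 23 in BPAC (22.5% of all). The family's share was 3.61% in AC and 10.8% in PAC, below the background, and 27.7% in BAC and BPAC, near it.

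*Rpl15*, which lies deep in the large subunit, had 205, 225, 129 and 211 CPM in the 4 BPAC samples with EtOH, in replicate order, and 362, 352, 299 and 311 CPM with 4-HT. In BAC it had 213, 233, 222 and 216 CPM with EtOH and 353, 361, 307 and 317 CPM with 4-HT, again with no overlap between the treatments. The log2 fold change was 0.78 ± 0.13 in BPAC (SE, edgeR adjusted p = 1.19e-05), 0.60 ± 0.13 in BAC (edgeR adjusted p = 3.16e-04), 0.40 ± 0.13 in PAC (edgeR adjusted p = 0.0163) and 0.21 ± 0.18 in AC (edgeR adjusted p = 0.457). *Rpl15* was higher with 4-HT in each of the 14 cultures. Without BPAC replicate 3, the sample with the lowest EtOH value, the BPAC change was still past the threshold.

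*Rpl27*, also of the large subunit, had 173, 192, 115 and 204 CPM with EtOH and 324, 287, 242 and 262 CPM with 4-HT in BPAC. In PAC it had 182, 169, 164 and 180 CPM with EtOH and 255, 256, 233 and 204 CPM with 4-HT, and neither genotype showed overlap. Its log2 changes were 0.71 ± 0.13 in BPAC, 0.59 ± 0.13 in BAC, 0.45 ± 0.13 in PAC and 0.17 ± 0.18 in AC, with edgeR adjusted p-values of 4.46e-05, 3.62e-04, 0.00717 and 0.569. It too was higher in 14 of 14 cultures.

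*Rpl5* and *Rpl11*, whose products form the 5S particle and bind MDM2, are given side by side, and the difference between them was not tested. *Rpl5* had 205, 258, 148 and 266 CPM with EtOH and 370, 353, 305 and 331 CPM with 4-HT in BPAC, all 4-HT values being above all EtOH values. It rose by 0.63 ± 0.13 in BPAC (edgeR adjusted p = 1.46e-04) and 0.55 ± 0.13 in BAC (edgeR adjusted p = 6.90e-04), with 0.30 ± 0.13 in PAC and 0.03 ± 0.18 in AC. *Rpl11* had 174, 225, 109 and 227 CPM with EtOH and 255, 251, 223 and 226 CPM with 4-HT in BPAC, where the treatments overlapped. Its log2 change there was 0.38 ± 0.15 (edgeR adjusted p = 0.0379), and with the replicate block it passed (edgeR adjusted p = 0.00989). *Rpl36al*, the autosomal relative of *Rpl36a*, rose by 0.56 ± 0.11 in BPAC and 0.41 ± 0.11 in BAC.

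**Figure D3:**
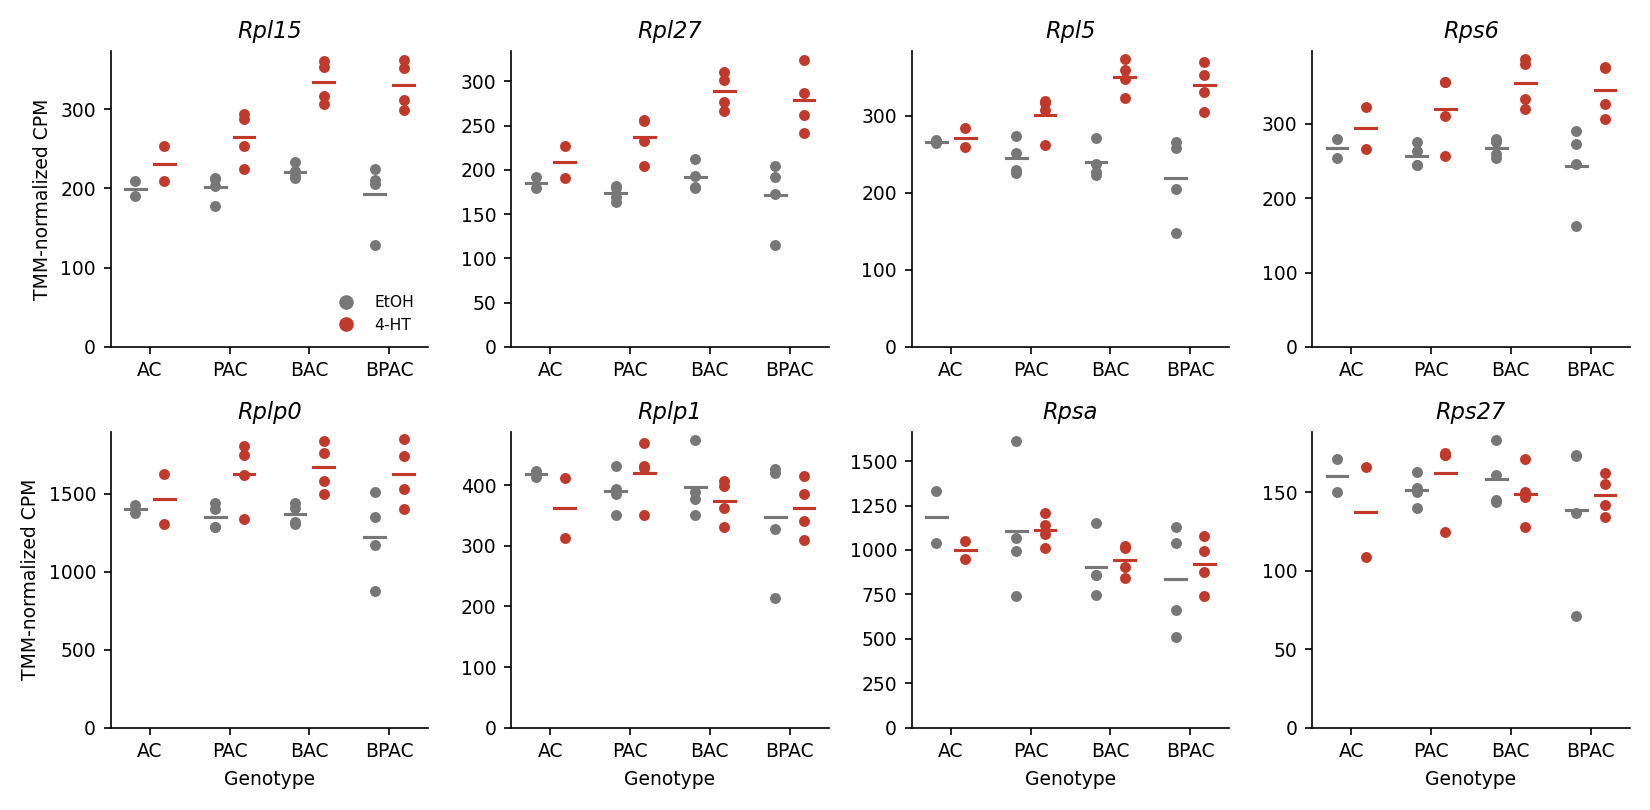
TMM-normalized CPM of 8 genes in each sample by genotype, with EtOH in grey, 4-HT in red and bars at the group means; each axis starts at 0. *Rpl15*, *Rpl27* and *Rpl5* separate the treatments in BAC and BPAC, whereas *Rpsa* and *Rps27* overlap in all 4 genotypes and *Rplp1* in all but AC, where both 4-HT samples lie below the EtOH samples.

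The 3 stalk genes differed in their values. *Rplp0* had 1170, 1510, 876 and 1350 CPM with EtOH and 1740, 1850, 1400 and 1530 CPM with 4-HT in BPAC, with an overlap between replicate 2 with EtOH and replicate 3 with 4-HT. Its log2 change of 0.41 ± 0.13 passed (edgeR adjusted p = 0.00902) by a small margin and was lost in 17 of 30 alternative settings. *Rplp2* had a change of 0.31 ± 0.14 (edgeR adjusted p = 0.0693) and *Rplp1* of 0.06 ± 0.16 (edgeR adjusted p = 0.743). *Rplp1* had 327, 420, 214 and 427 CPM with EtOH and 415, 386, 309 and 341 CPM with 4-HT, fully overlapping, and without BPAC replicate 3 its change was -0.0402. The difference between the stalk genes was not tested.

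Among the small subunit genes, *Rps6*, the substrate of the S6 kinases, had 246, 290, 163 and 273 CPM with EtOH and 375, 377, 306 and 326 CPM with 4-HT in BPAC. It rose there by 0.51 ± 0.13 (edgeR adjusted p = 0.00202), was at 0.41 ± 0.13 in BAC (edgeR adjusted p = 0.0116, and 0.00122 with the replicate block) and was higher in 14 of 14 cultures. *Rps2* rose by 0.43 ± 0.12 in BPAC.

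*Rpsa*, which encodes a small subunit protein also known as the laminin receptor precursor, was at 664, 1130, 512 and 1040 CPM with EtOH and at 997, 1080, 740 and 878 CPM with 4-HT in BPAC. The treatments overlapped, and the change was 0.14 ± 0.21 (edgeR adjusted p = 0.577). *Rps27* had 137, 173, 71.5 and 174 CPM with EtOH and 162, 155, 134 and 142 CPM with 4-HT, a change of 0.09 ± 0.18 that became -0.0773 without BPAC replicate 3. Its paralog *Rps27l*, a p53 target, was at 0.30 ± 0.15 in BPAC (edgeR adjusted p = 0.0957) and at 0.12 ± 0.15 in PAC. Neither passed in a genotype. The windows printed for *Rps27* and *Rps6* both hold a pyrimidine run, of 9 and 10 bases.

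Other genes with known ties to disease had values inside those of the family. In BPAC *Rps19* and *Rpl10* were at 0.22 ± 0.17 and 0.27 ± 0.11, and *Rpl22* and *Rpl13a* at 0.17 ± 0.20 and 0.16 ± 0.18, none past the threshold, though *Rpl10* passed with the replicate block (edgeR adjusted p = 0.00746). *Rpl22*, of which mutations are known in colorectal tumours, was at -0.0128 without BPAC replicate 3. *Rps19bp1*, whose product binds RPS19 and SIRT1 and is not a ribosomal protein, rose by 0.51 ± 0.13 in BPAC (edgeR adjusted p = 0.00161) and 0.41 ± 0.13 in BAC (edgeR adjusted p = 0.00889). Among the low-count forms, *Rps27rt* had the lowest of the 4-HT changes, -0.66 ± 0.29 in PAC (edgeR adjusted p = 0.0785), at 37.7 counts per sample on average. *Rps4l* was at -0.46 ± 0.46 in BPAC and at -0.47 ± 0.47 in BAC, where it had 14.4, 8.65, 12.9 and 4.8 CPM with EtOH and 7.17, 5.38, 13.5 and 3.53 CPM with 4-HT.

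The order of the genes was similar between genotypes, though single genes moved. Over the 76 standard genes, the log2 changes of BAC and BPAC had a Spearman's rho of 0.922, AC and BAC of 0.853, PAC and BPAC of 0.817, AC and PAC of 0.801, AC and BPAC of 0.783 and PAC and BAC of 0.758. These are descriptions across genes, which are not independent replicates, and the genotypes share the gene lengths and the base composition. *Rpl15* ranked 1, 2, 1 and 1 and *Rpl27* 3, 1, 2 and 2 in AC, PAC, BAC and BPAC, while *Rplp1* ranked 69, 71, 75 and 75 and *Rps27* 70, 72, 76 and 74. Other genes changed place, such as *Rps3a1* at 7, 45, 16 and 14 and *Rpl4* at 24, 64, 40 and 49. The position of a gene in this order had little relation to its transcript length (rho from -0.034 to 0.11), its GC content (-0.134 to 0.079) or its mean level (-0.107 to 0.169). These values compare genes within the family, so they cannot show whether length or GC content shifts the family against other genes. The 23 genes with a pyrimidine run of at least 7 at the annotated start had median changes of -0.04, 0.24, 0.19 and 0.40 in AC, PAC, BAC and BPAC. For the 38 with a shorter run they were -0.01, 0.24, 0.23 and 0.37, a difference that was not tested.

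The cultures of 1 genotype differed widely. In BPAC the median log2 change of the 83 genes was 0.57 and 0.86 in the cultures of donor 1 (duplicates 1 and 2) and 0.18 and 0.03 in those of donor 2. In BAC it was 0.44 and 0.42 in the duplicate 1 cultures of donors 1 and 2, and 0.09 and -0.02 in the duplicate 2 cultures. In PAC it was 0.25 and 0.44 in duplicate 1 and 0.23 and 0.00 in duplicate 2, and in AC it was 0.09 and -0.15. In duplicate 1 alone, 17 genes rose in PAC (13.5% of all genes), 40 in BAC (19.8% of all) and 26 in BPAC (21.4% of all). In duplicate 2 alone, 0 rose in PAC (0.0148% of all), 0 in BAC (10.6% of all) and 1 in BPAC (10.8% of all). In duplicate 2 alone the median was 0.04 in BAC and 0.40 in BPAC, where the culture of donor 1 had 0.86 and that of donor 2 had 0.03. The duplicates also differed in their mitochondrial share, which with EtOH was 1.20% to 2.51% in duplicate 1 and 1.19% to 6.43% in duplicate 2, and its part in the result was not tested.

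**Figure D4:**
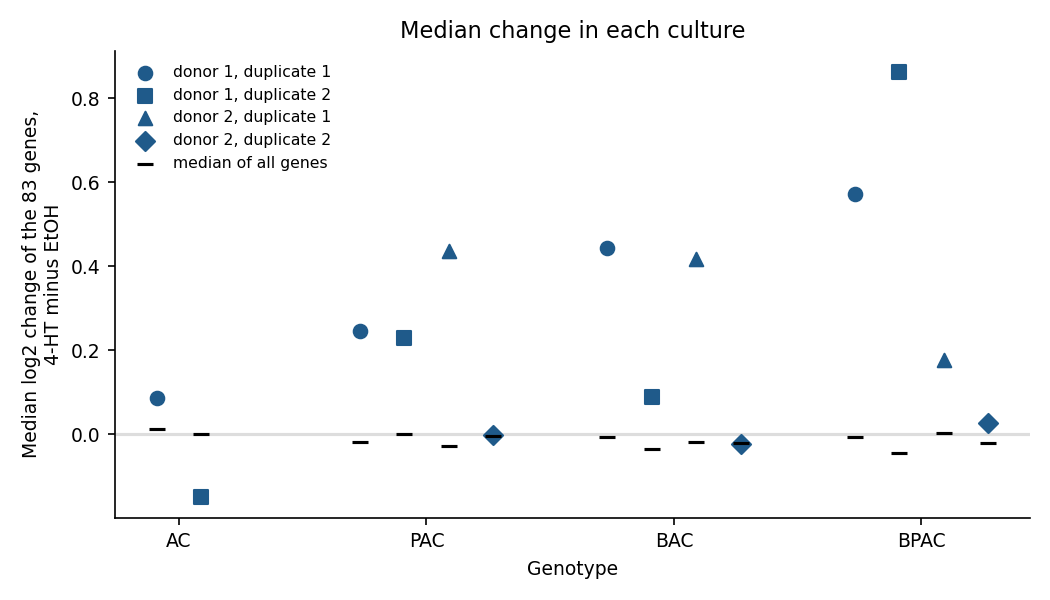
Median log2 change (4-HT minus EtOH, log2 CPM) of the 83 genes in each of the 14 cultures, with the median of all genes as a dash. BPAC donor 1 reaches 0.57 and 0.86, while BPAC donor 2 stays at 0.18 and 0.03.

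The part of the *Braf* allele in the 4-HT response was examined as the average change in the genotypes that carry it, BAC and BPAC, less the average in the others. No gene of the family passed in either direction (6.61% of all genes did). A total of 82 of 83 values lay above 0, with a median of 0.19 against -0.01 for all genes, and 7 of the 83 had an unadjusted p under 0.05, a smaller share than the 28.5% of all genes. *Rpl5* had the lowest adjusted p, with a difference of 0.43 ± 0.14 (edgeR adjusted p = 0.041), followed by *Rpl15* with 0.39 ± 0.14 (edgeR adjusted p = 0.0656) and *Rpl27* with 0.34 ± 0.14 (edgeR adjusted p = 0.11). With the replicate block *Rpl5* and *Rpl15* passed (edgeR adjusted p = 0.0097 and 0.00925), 2 of 83, when 6.51% of all genes had a higher change. With the GC and length offset 5 passed (6.02% of the family, 4.99% of all genes), and with both the block and the offset 20 (24.1% and 8.65%). With donor sums 0 passed (2.18% of all genes had a higher change). Without BPAC replicate 3 the median was 0.14.

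For the *Trp53* allele, PAC and BPAC against AC and BAC, none of the 83 passed in either direction (0.0148% of all genes), and none had an unadjusted p under 0.05, against 1.04% of all genes. DESeq2 and limma-voom called none either. The median was 0.20 against -0.01, with 81 of 83 above 0, and it was 0.14 without BPAC replicate 3. AC, the genotype with 1 donor and the lowest median, is on the minus side of both contrasts.

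Levels without recombination were compared too. With EtOH, none of the 83 differed with the *Braf* allele (0.0296% of all genes passed) or with the *Trp53* allele (0.0592% of all), and 4 and 1 of the 83 had an unadjusted p under 0.05, against 17.2% and 4.96% of all genes. The medians were -0.11 and -0.13, with 76 and 80 of 83 genes at or below 0. Without BPAC replicate 3 they were -0.02 and -0.05. *Rps4l* had the largest value with the *Braf* allele, 1.15 (edgeR adjusted p = 0.15), its EtOH samples having 10.9 to 31.3 CPM in BPAC, 4.8 to 14.4 in BAC, 4.24 to 13 in PAC and 3.47 and 4.79 in AC.

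Genes that work with the ribosomal proteins were set beside them. These lists, and the members, were chosen with results of these data known. *Rack1*, a scaffold on the small subunit, rose by 0.62 ± 0.13 in BPAC and 0.48 ± 0.13 in BAC. *Fau*, which encodes a small subunit protein fused to a ubiquitin-like domain, did not pass in any genotype and had -0.13 ± 0.11 in BPAC. Of the paralogs, *Rpl7l1* rose in all 4 genotypes, from 0.49 ± 0.08 in PAC to 0.83 ± 0.08 in BPAC, whereas *Rpl22l1* did not pass in any.

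Dedicated chaperones escort single ribosomal proteins to the nucleolus. The shares of all genes that rose, 3.00%, 11.2%, 20.3% and 22.0% in AC, PAC, BAC and BPAC, are the background for these lists. Of the 8 measured, 2 rose in AC, 6 in PAC and 7 in each of BAC and BPAC, and none fell, with medians of 0.46, 0.46, 0.71 and 0.76. *Grwd1*, the chaperone of RPL3, rose in each genotype, by 0.86 ± 0.18 (AC), 0.92 ± 0.13 (PAC), 1.18 ± 0.13 (BAC) and 1.17 ± 0.13 (BPAC). *Heatr3*, which carries RPL5 into the nucleus, rose by 0.53 ± 0.12 in AC and 0.76 ± 0.09 in BPAC, and *Tsr2*, the chaperone of RPS26, by 0.75 ± 0.12 in BPAC. *Aamp* was at -0.12 ± 0.08 in BPAC and did not pass in any genotype. With the replicate block 5 of the 8 rose in AC (7.45% of all genes).

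Several translation factors and other proteins also have TOP mRNAs. The list of 18 holds genes that are not translation factors, among them *Npm1*, *Hnrnpa1*, *Nap1l1* and *Tpt1*. Of the 18, 1 (AC), 5 (PAC), 9 (BAC) and 10 (BPAC) rose, and none fell. With the replicate block 8 rose in PAC (16.5% of all genes) and 1 fell in BPAC (27.7% of all genes). *Npm1*, a nucleolar chaperone of ribosome assembly, rose by 1.21 ± 0.14 in BPAC and *Hnrnpa1*, which binds RNA, by 1.09 ± 0.06. *Eef1a1*, the elongation factor that brings tRNA, and *Eef2*, which moves the ribosome on, were at 0.16 ± 0.10 and 0.10 ± 0.10 and did not pass. Of 7 host genes of snoRNAs with TOP starts, *Snhg5* and *Snhg6* rose in BAC and BPAC, and *Eif4a2* fell by 0.63 on the log2 scale in PAC. With the culture as a block *Eif4a2* passed as a fall in all 4 genotypes and *Snhg5* also as a rise in PAC (edgeR adjusted p = 0.00789).

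**Figure D5:**
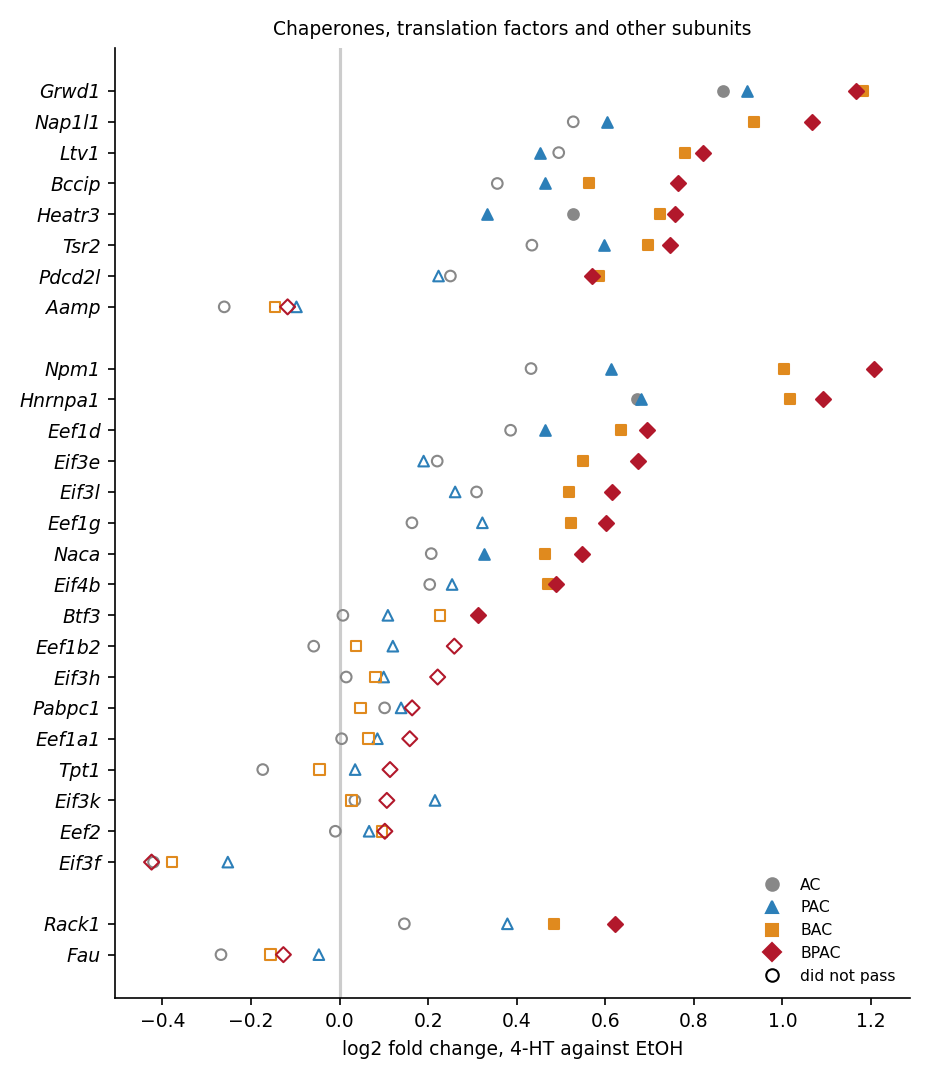
Log2 fold change of 4-HT against EtOH in each genotype, with filled marks for an adjusted p under 0.01. Shown are ribosomal protein chaperones (top), translation factors and other genes with TOP mRNAs (middle) and *Rack1* and *Fau* (bottom). *Nap1l1* belongs to both upper lists and is drawn once. *Grwd1* is filled in all 4 genotypes, *Aamp*, *Eef1a1* and *Eef2* in none.

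Of 26 genes around mTORC1 and the S6 kinases, 2 rose and 1 fell in AC, 4 rose and 1 fell in PAC, 8 rose and 2 fell in BAC, and 7 rose and 3 fell in BPAC. Of all genes 3.00%, 11.2%, 20.3% and 22.0% rose and 4.25%, 12.2%, 21.5% and 23.0% fell in the 4 genotypes in this order. Blocking by culture gave 2, 4, 10 and 10 genes of the list that rose and 2, 3, 3 and 4 that fell. With this block 7.45%, 16.5%, 25.3% and 26.7% of all genes rose and 8.99%, 18.4%, 26.7% and 27.7% fell. *Myc*, the transcription factor that drives ribosome synthesis, rose in each genotype, between 1.25 ± 0.26 (AC) and 1.84 ± 0.19 (BAC). Its partner *Max* fell in all 4, by 0.76 on the log2 scale in AC and by 0.48 in BPAC. *Eif4e*, the cap-binding protein, rose in all 4 genotypes. *Larp1*, which binds TOP mRNAs, and *Rps6kb1*, the S6 kinase, rose in PAC, BAC and BPAC, while *Mtor* and *Rptor* did not pass in any genotype. *Pdcd4*, an inhibitor of translation, fell by 1.12 in BAC and by 1.08 in BPAC on the log2 scale, and for *Eif4e*, *Eif4ebp1* and *Rps6ka4* the response was higher, and for *Pdcd4* lower, with the *Braf* allele past the threshold. With the replicate block *Larp4* and *Rps6ka6* were also higher (edgeR adjusted p = 9.99e-04 and 0.00489).

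The ribosome of the mitochondrion, made of other proteins encoded in the nucleus, was set beside the cytosolic one. Of its 77 genes, 1 (AC), 3 (PAC), 25 (BAC) and 33 (BPAC) rose, and none fell, with medians of 0.10, 0.15, 0.21 and 0.30. Among all genes 3.00%, 11.2%, 20.3% and 22.0% rose. Blocking by culture gave 1, 13, 34 and 44 of the list that rose (7.45%, 16.5%, 25.3% and 26.7% of all genes). In BAC 3 of the list then fell (26.7% of all genes). Of the 13 genes of the mitochondrial genome, in contrast, 0, 9, 12 and 11 fell and none rose, and with the block 1, 13, 13 and 13 fell. Among all genes 4.25%, 12.2%, 21.5% and 23.0% fell, and 8.99%, 18.4%, 26.7% and 27.7% with the block.

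All samples had the markers of epithelium, with 10 of 10 genes counted and a summed level from 14000 to 27100 CPM. With 4-HT it was 14000 to 18600 CPM and with EtOH 17300 to 27100 CPM, and its part in the results was not tested. Only 3 of 10 fibroblast markers (*Fn1*, *Pdgfrb*, *Vim*) were among the genes counted, with a sum of 5.76 to 25.8 CPM, and 3 of 10 immune markers, with a sum of 2.58 to 7.08 CPM. Total counts ranged from 20577276 to 40068718 per sample.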

How the data were processed

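RNA-seq of 28 organoid samples was used. What the authors deposited are unnormalized whole-number counts, one per gene and sample, made after trimming with Trimmomatic 0.39 and alignment with STAR 2.5.2b (submitters' processing notes) to GRCm38. The counting program, its annotation and its strandedness are not given in the sources used here, and reads shared with pseudogene copies or antisense genes could shift single genes. Symbols and lengths were taken from the GENCODE annotation of GRCm38 (13479 of 13519 identifiers matched), and promoters from RefSeq (GRCm38.p6, matched by symbol, the first entry of each gene).

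TMM factors and quasi-likelihood tests (glmQLFit, glmQLFTest) came from edgeR 4.0.16 under R 4.3.3, on the 8 groups with one spread for all (common biological coefficient of variation 0.191). The study's methods name limma, TMM, Benjamini-Hochberg adjustment and a threshold of 0.01, which was kept. limma-voom (limma 3.58.1) and DESeq2 1.42.0 were alternatives. Log2 CPM had a prior count of 2. The EtOH and 4-HT samples of a culture share donor and duplicate number, and their deviations from the group means correlated with r from 0.245 to 0.532, so fits with the culture as a replicate block were also made. Where a label lacked the number (1 sample), duplicate 1 was assumed. The test was checked on simulated data.

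The members and gene lists were chosen with earlier results of these data known. Genes named were the 5 largest rises and falls past the threshold per comparison, calls against the common direction, the 5 highest and lowest levels per length, 14 fixed members and the 6 lists. No tests were made over the list as a whole. Alternatives were the other tools and scalings, count filters, thinning, offsets, donor sums, duplicates alone and single cultures left out. Figures were drawn with Python 3.11.15 and matplotlib 3.10.9. Results for some genes that the rule would name are not reported here.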

Additional observations from a re-analysis of the deposited data

How the results depend on the processing

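In AC no member passed under any of the alternatives run, and no member fell in any genotype except 1 in BAC with the replicate block. The counts of members that rose moved as follows in PAC, BAC and BPAC, against 1, 8 and 29. They were 4, 17 and 44 with the replicate block, 23, 53 and 65 with the replicate block and a GC and length offset, 15, 47 and 57 with that offset alone, 30, 29 and 56 with library size alone, 2, 4 and 19 with genes of at least 10 CPM, 0, 3 and 10 with donor sums, and 4, 21 and 48 at an adjusted p of 0.05. Of all genes 19.2%, 28.6% and 28.9% rose with the block and the offset, 14.9%, 23.5% and 26.2% with at least 10 CPM (79 members tested), 9.39%, 20.7% and 21.9% with donor sums, and 17.6%, 26.4% and 27.6% at 0.05. PAC had 4 with DESeq2 and with the duplicate number as a covariate (13.4% and 15.8% of all genes). Duplicate 1 alone gave 17 in PAC and 40 in BAC, and duplicate 2 alone 0, 0 and 1. Without the duplicate 1 PAC cultures PAC had 0. Leaving out 1 culture gave 0 to 8 in PAC, 3 to 22 in BAC and 5 to 34 in BPAC, the BAC count moving by over 1.5 times without each of its own cultures and without BPAC replicate 3. A higher change with the *Braf* allele passed for 2 members with the replicate block, 5 with the offset, 20 with both and 1 at 0.05 (7.27% of all genes), and the block moved none of the other counts of members for which it was run, the EtOH comparisons not being among them. The causes were not tested. The share change with TMM-scaled library sizes was -0.0449 in AC and 0.407 in PAC, and the median with library size alone 0.21 and 0.46. Leaving out 1 culture gave share changes of 0.116 to 0.595 in AC, 0.656 to 0.975 in PAC, 0.608 to 0.821 in BAC and 0.829 to 1.14 in BPAC, and medians of -0.15 to 0.09, 0.18 to 0.31, 0.17 to 0.32 and 0.24 to 0.50. In BPAC, *Rpl22* (-0.0128 to 0.382), *Rplp1* (-0.0402 to 0.2086) and *Rps27* (-0.0773 to 0.2437) ranged across 0 when 1 culture was left out, negative without BPAC replicate 3, and *Rplp1* also without replicate 1 (-0.0325). Of 720 alternative values for 24 named results, 652 kept direction and call, 49 lost and 15 gained the call and 4 reversed. Of the 24 results, 4 kept their call in every alternative. Some alternatives could change little. All 13519 genes passed the low-count filter, and leaving out a culture of another genotype scarcely moved a fold change. AC has 1 donor and 2 cultures, and 2 donors per other genotype limit what can be said of a genotype as against its donors.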
